A study of Schizosaccharomyces pombe with 9 samples.

Results

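Among 3 cultures of one fission yeast strain that lacks *ecl3*, a set of protein-coding genes stood at very different levels in the first and the second. These are described here. A gene was a member of the set if it had at least 10 CPM (its read count scaled to the library's total of gene-assigned reads) in *ecl3*Δ replicate 1 or 2 and if log2 of (CPM + 1) differed between these libraries by at least 1, that is 2-fold. The rule took coding genes only and left out those on cosmids SPAC212, SPAC977 and SPBPB2B2. It gave 95 members of 4651 coding genes at that level, out of 5118 coding genes and 6988 genes in all. Of the 95, 85 were lower and 10 were higher in *ecl3*Δ replicate 1 than in replicate 2. The levels in these 2 libraries chose the members, so they are given as a description with no test. *ecl3*Δ replicate 3, the *ecl123*Δ libraries and the WT libraries took no part in the choice.

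The strains were *Schizosaccharomyces pombe* of mating type h-. In *ecl3*Δ (*ecl3Δ::kanMX*) the open reading frame was replaced by a drug resistance cassette. In *ecl123*Δ (*ecl1Δ::hygMX ecl2Δ::natMX ecl3Δ::kanMX*) *ecl1* and *ecl2* were replaced as well, and WT carried none of these deletions. All cultures were in logarithmic growth in YES, a rich yeast extract medium, at 30 °C, and each strain had 3 replicates of poly(A)+ RNA from 1 isolate. The *ecl* genes encode small paralogous proteins implicated in survival under nutrient stress.

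The libraries held between 23254907 and 34871124 counted reads, with 34871124, 27689634 and 24877150 in *ecl3*Δ replicates 1, 2 and 3. *ecl3* had 0 counts in each of the 3 *ecl3*Δ libraries and 0, 0 and 1 counts in the *ecl123*Δ libraries, against 23, 15 and 42 counts in the WT libraries. These counts do not tell *ecl3*Δ replicate 2 from replicates 1 and 3, nor *ecl3*Δ from *ecl123*Δ. The levels of *ecl1* and *ecl2* are not given here. *ecl123*Δ replicate 3 stood apart from its own replicates: ribosomal protein genes took 20.2% of its counts, against 26.8 to 29.5% in the other 8 libraries. Of 8 marker genes of M cells (the h- mating type) 7 were in the table, with *mat1-Mc* at 0 in every library. Their summed level was 148 to 266 CPM in *ecl3*Δ, 94.1 to 121 CPM in *ecl123*Δ and 232 to 250 CPM in WT.

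The members came from several pathways with known roles in this yeast. Calcium entering the cytosol activates the phosphatase calcineurin, which sends the transcription factor Prz1 to the nucleus, where it turns on genes for calcium pumps. Mating starts when nutrients, nitrogen above all, run short: the transcription factor Ste11 then switches on the genes for pheromones, their receptors and the pheromone MAP kinase pathway. Fission yeast buries many of its surface proteins under galactomannan and anchors some by glycosylphosphatidylinositol (GPI), made and remodelled in the endoplasmic reticulum and Golgi.

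The 85 lower members stood at a median of 2.68-fold less in *ecl3*Δ replicate 1 than in replicate 2, and 12 of them differed at least 4-fold. The 10 higher members differed by a median of 2.09-fold and by 2.45-fold at most. Over all 4651 coding genes the median log2 ratio was -0.01 and the median absolute log2 ratio was 0.12. By the rule's own construction the members made up 2.04% of these genes, 1.83% lower and 0.215% higher. The lower members took 0.599% of all counts in *ecl3*Δ replicate 1, 1.75% in replicate 2 and 0.845% in replicate 3, against 1.35 to 1.53% in the WT libraries. The corresponding share was 0.554 to 0.681% in the *ecl123*Δ libraries. In a bulk culture fewer cells expressing a gene and less RNA per cell cannot be told apart.

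Set against WT, *ecl3*Δ replicates 1 and 2 lay on opposite sides for most members. *ecl3*Δ replicates 1 and 2 chose the members, so their places are a description from which nothing is read. *ecl3*Δ replicate 3, *ecl123*Δ and WT had no part in the choice. The median lower member stood at -1.15 log2 units from the WT mean in *ecl3*Δ replicate 1, 0.29 in replicate 2 and -0.72 in replicate 3. It stood at -1.14, -1.13 and -0.98 in the 3 *ecl123*Δ libraries. Replicate 1 was below all 3 WT libraries for 84 of the 85 genes, where 40.7% of the 4651 coding genes were, while replicate 2 was below for none (29.2% of coding genes) and above all of WT for 73 (19.0% of coding genes). Replicate 3, which the rule did not use, was below all of WT for 84 of 85, against 33.3% of coding genes. Each of the *ecl123*Δ libraries was below all of WT for 82 of 85, against 55.2%, 39.2% and 37.9% of coding genes.

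The 10 higher members were placed the other way round. Their median stood at 0.96 log2 units above the WT mean in *ecl3*Δ replicate 1, at -0.18 in replicate 2 and at 0.44 in replicate 3. In the *ecl123*Δ libraries it stood at 1.52, 0.54 and 1.62. Replicate 1 was above all WT libraries for 10 of 10, replicate 2 for none and replicate 3 for 9, against 26.1%, 19.0% and 28.0% of coding genes. Replicate 2 was below all WT libraries for 6 of 10, against 29.2% of coding genes. The *ecl123*Δ libraries were above for 10, 8 and 10 of them, against 23.3%, 32.4% and 49.3% of coding genes.

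**Figure D1:**
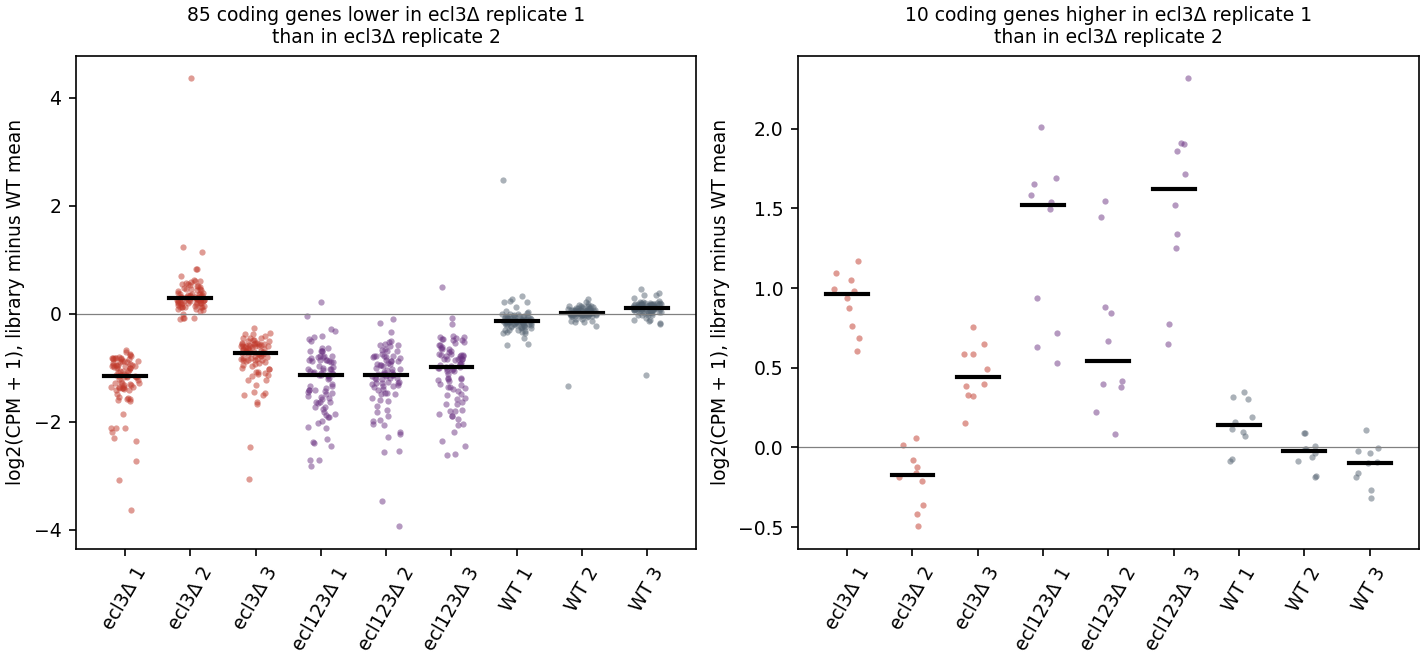
Each point is 1 gene in 1 library, as log2(CPM + 1) minus the mean of the 3 WT libraries, for the 85 genes lower (left) and the 10 higher (right) in *ecl3*Δ replicate 1 than in replicate 2, and black bars are medians. Among the *ecl3*Δ libraries replicate 2 lies nearest to WT (medians 0.29 and -0.18), while replicate 3 (-0.72 and 0.44) lies on the side of replicate 1 and of *ecl123*Δ.

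*ecl3*Δ replicate 3 lay between the other *ecl3*Δ libraries for 80 of the 85 lower members and for 10 of the 10 higher members, against 45.4% of the 4651 coding genes. A rule that takes genes with replicates 1 and 2 far apart favours such a place for any other library of the strain, so these counts are a description. On a scale with replicate 2 at 0 and replicate 1 at 1, its median position was 0.71 for the lower and 0.58 for the higher members, and it was nearer to replicate 1 for 81 of 85 and 7 of 10. At 2-fold, 95 coding genes separated replicates 1 and 2 and 49 separated replicates 2 and 3, of which 44 were members (2.04% and 1.05% of coding genes). Both of these pairs hold replicate 2, which the rule used. Only 7 separated replicates 1 and 3 (0.151%), 5 of them members. Within WT 6, 7 and 0 coding genes differed 2-fold between the pairs of libraries, 1, 2 and 0 of them members. Within *ecl123*Δ there were 34, 56 and 75, with 7, 1 and 8 members. The members were also less even than coding genes at large in the strains the rule left out. Those coding genes had at least 10 CPM in a library of the strain. Members were under no such limit there, and *fub2* had 1.45 to 2.32 CPM in *ecl123*Δ. The highest and lowest *ecl123*Δ libraries differed by a median of 0.52 log2 units for the lower and 0.85 for the higher members, against 0.37 for the coding genes. In WT the median differences were 0.30 and 0.27, against 0.13 for the coding genes. With 10 in place of 1 added to CPM, they were 0.40 and 0.64 against 0.32 in *ecl123*Δ. In WT they were then 0.25 and 0.20 against 0.11.

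The comparison of *ecl123*Δ with WT shares no library with the rule. A gene was called if its Benjamini-Hochberg adjusted p (edgeR quasi-likelihood test, over all 6213 genes tested) was at most 0.05, it differed at least 2-fold and its mean normalized count was at least 100 in the higher strain. All 95 members passed the filter on low counts. Of the 85 lower members, 44 fell and 0 rose in *ecl123*Δ, where 1.46% of all genes tested fell and 0.435% rose. At the adjusted p alone 71 of 85 were lower, against 3.52% of all genes. The fitted change was negative for 85 of 85, with a median of -1.07 on the log2 scale (range -3.12 to -0.13), and for 80 no *ecl123*Δ library reached the lowest WT library, which held for 13.5% of all genes. The 5 exceptions were *SPAC750.01*, *SPAPB1A11.05*, *SPAPJ695.02*, *mug147* and *urg2*. Among all coding genes the median change was 0.00. Of the 62 coding genes that fell in *ecl123*Δ, 44 (71.0%) were lower members, which is 51.8% of the lower members. Without *ecl123*Δ replicate 3, the library that stood apart, 51 lower members were called. Without WT replicate 2 the count was 30, and without WT replicate 3 it was 31. With all 9 libraries in the fit it was 8, and calls over all genes went from 118 to 46. That fit takes its spread also from the *ecl3*Δ libraries, including replicates 1 and 2, between which the rule required members to differ.

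Of the 10 higher members, 5 rose and 0 fell in *ecl123*Δ, where 0.435% of all genes rose. At the adjusted p alone the count was also 5, against 1.82% of all genes. The fitted change was positive for 10 of 10, with a median of 1.42, and the libraries did not overlap for 8 (all but *SPBPB10D8.01* and *SPBPB10D8.02c*), against 12.7% of all genes. Of the 19 coding genes that rose in *ecl123*Δ, 5 (26.3%) were higher members. This count rests on few libraries: it was 3, 2 and 2 without WT replicate 1, 2 and 3, and 6 without *ecl123*Δ replicate 3. For each of the 4651 coding genes, the mean of log2(CPM + 1) in *ecl123*Δ minus that in WT was also taken, without the fit. Its Pearson r with the log2 ratio between the 2 *ecl3*Δ libraries was 0.81, and r was 0.72 over the 4556 that were not members. These are correlations across genes, which are not independent replicates. The ratio is the one that chose the members and set the others apart, so both r values are a description with no test.

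**Figure D2:**
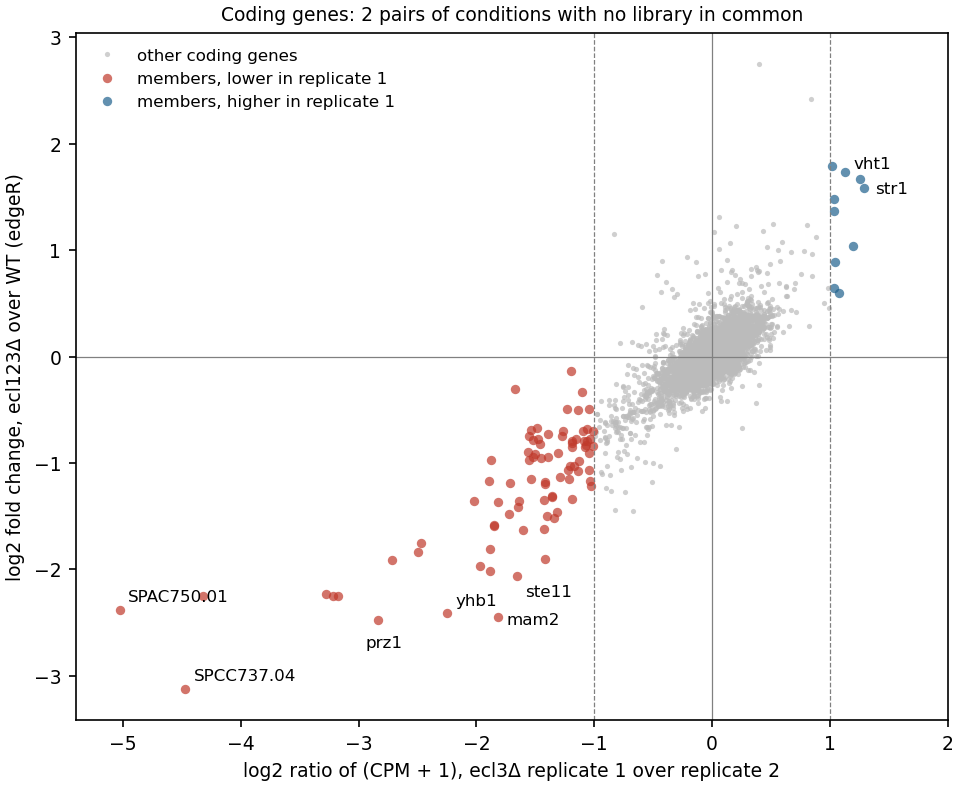
Each point is 1 coding gene at 10 CPM or more. The x axis gives the log2 ratio of (CPM + 1) of *ecl3*Δ replicate 1 over replicate 2, with dashed lines at the limits of -1 and 1, and the y axis the log2 fold change of *ecl123*Δ over WT. Red points are the 85 lower and blue points the 10 higher members, and every red point lies below 0 and every blue point above 0 on the y axis.

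A test of *ecl3*Δ replicate 3 alone against the 3 WT libraries gave no call. With 1 library its spread could not be estimated and was assumed to be that of WT and *ecl123*Δ, which entered the fit. By edgeR 0 of the 85 lower and 0 of the 10 higher members passed the adjusted p, as did 0.0% of all 6322 genes tested. At an unadjusted p under 0.05, 68 lower members were lower and 2 higher members (*vht1* and *SPAC1039.02*) were higher, against 2.78% and 1.11% of all genes. The fitted changes were negative for 85 of 85 (median -0.76) and positive for 10 of 10 (median 0.47). Some of the lower members were called by DESeq2, and by edgeR once *ecl123*Δ replicate 3 was left out, so the lack of calls depends on the fit. This comparison and that of *ecl123*Δ use the same WT libraries.

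Over all 85 lower members, 44 (51.8%) fell in *ecl123*Δ and 71 passed the adjusted p. The counts given below for each function group are to be read beside these, and no group was tested against them. The lower members included 5 genes of calcium handling and signaling, of which 4 fell in *ecl123*Δ, with a median log2 change of -1.48. *prz1* (SPAC4G8.13c), the calcineurin-responsive transcription factor, stood at 86.4, 623 and 155 CPM in *ecl3*Δ replicates 1, 2 and 3, 64.5, 71.7 and 93.1 CPM in the *ecl123*Δ libraries and 376, 432 and 487 CPM in the WT libraries. *ecl3*Δ replicate 2 exceeded every WT library, while replicates 1 and 3 lay below every one and only replicate 1 lay within the range of *ecl123*Δ. The strain means were therefore poor summaries, at 288 ± 292 CPM in *ecl3*Δ, 76.4 ± 14.9 CPM in *ecl123*Δ and 432 ± 55.7 CPM in WT (SD, n = 3 each). *prz1* fell in *ecl123*Δ, with a log2 change of -2.48 ± 0.15 (SE, edgeR adjusted p = 3.6e-04). In *ecl3*Δ replicate 3 its fitted log2 change was -1.47 ± 0.22, with no call.

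*pmc1* (SPAPB2B4.04c), the pump that moves calcium into the vacuole, had 49.7, 166 and 66.6 CPM in *ecl3*Δ replicates 1, 2 and 3, 31.9, 39.6 and 60.7 CPM in the *ecl123*Δ libraries and 143, 115 and 114 CPM in the WT libraries. *ncs1* (SPAC18B11.04), a calcium sensor of the neuronal calcium sensor family, had 105, 284 and 166 CPM in *ecl3*Δ replicates 1, 2 and 3, 76.6, 109 and 77.3 CPM in the *ecl123*Δ libraries and 249, 285 and 283 CPM in the WT libraries. *cmk1* (SPACUNK12.02c), a calcium- and calmodulin-dependent kinase, had 34.96, 95.8 and 51.2 CPM in *ecl3*Δ replicates 1, 2 and 3, 31.9, 34.9 and 34.6 CPM in the *ecl123*Δ libraries and 76.99, 90.8 and 93.7 CPM in the WT libraries. In each of these 3 genes *ecl3*Δ replicate 2 lay within or above the WT range, replicates 1 and 3 lay below it, and *ecl123*Δ and WT did not overlap. The log2 changes in *ecl123*Δ, all called, were -1.48 ± 0.22 for *pmc1*, -1.62 ± 0.15 for *ncs1* and -1.35 ± 0.10 for *cmk1* (SE, edgeR adjusted p = 0.0098, 0.0017 and 6.8e-04). *rsn1* (SPBC354.08c), annotated as a calcium transporter, had 20.6, 43.6 and 26.7 CPM in *ecl3*Δ replicates 1, 2 and 3, 12.1, 13.9 and 27.4 CPM in the *ecl123*Δ libraries and 46.5, 33.6 and 32.5 CPM in the WT libraries, with no call (edgeR adjusted p = 0.1). Of 17 listed calcium and calcineurin genes, 14 were at 10 CPM or more and 4 were members. In *ecl123*Δ these 4 fell and none of the 17 rose, and the median over the list was 0.00, as over all coding genes.

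The mating members were a transcription factor, a kinase and a receptor gene. *ste11* (SPBC32C12.02), the transcription factor that switches on mating, stood at 34.04, 109.6 and 34.9 CPM in *ecl3*Δ replicates 1, 2 and 3, 17.9, 17.5 and 18.8 CPM in the *ecl123*Δ libraries and 89.5, 72.7 and 67.9 CPM in the WT libraries. *spk1* (SPAC31G5.09c), the pheromone MAP kinase, stood at 43.2, 117 and 67.3 CPM in *ecl3*Δ replicates 1, 2 and 3, 28.4, 27.1 and 31.3 CPM in the *ecl123*Δ libraries and 101, 112 and 117 CPM in the WT libraries. *mam2* (SPAC11H11.04), the receptor by which M cells sense P-factor, stood at 8.55, 32.6 and 15.3 CPM in *ecl3*Δ replicates 1, 2 and 3, 3.92, 4.23 and 4.95 CPM in the *ecl123*Δ libraries and 18.1, 23.9 and 30.4 CPM in the WT libraries. *ecl3*Δ replicate 2 was at or above the highest WT library for *ste11* and *mam2* and near it for *spk1*, and the *ecl123*Δ libraries lay below each *ecl3*Δ library in all 3 genes. All of them fell in *ecl123*Δ, with changes of -2.06 ± 0.13, -1.90 ± 0.09 and -2.44 ± 0.21 (log2, SE, edgeR adjusted p = 3.6e-04, 2.2e-04 and 0.0015). In *ecl3*Δ replicate 3 the fitted changes were -1.12, -0.69 and -0.64. Of 28 listed pheromone and mating genes 24 were at 10 CPM or more, with a median log2 ratio of -0.46 between *ecl3*Δ replicates 1 and 2, and 3 were members. In *ecl123*Δ 10 of 27 tested fell and 0 rose, with a median of -0.66 against 0.00 for all coding genes. The summed M cell markers, which include *mam2*, moved with these genes, at 148, 266 and 185 CPM in the *ecl3*Δ libraries. The summed level of 4 P cell markers moved the same way, at 511, 840 and 568 CPM, nearly all of it *sxa1* (477, 808 and 537 CPM). The other P cell markers did not share that order: *map3* (10.9, 7.66 and 8.16 CPM) and *map2* (6.83, 5.16 and 5.15 CPM) were highest in replicate 1, and *map4* had 16.4, 18.7 and 17.6 CPM. The summed level of 8 meiosis markers was 43.9, 59.8 and 47.8 CPM. Their part in the result was not tested.

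**Figure D3:**
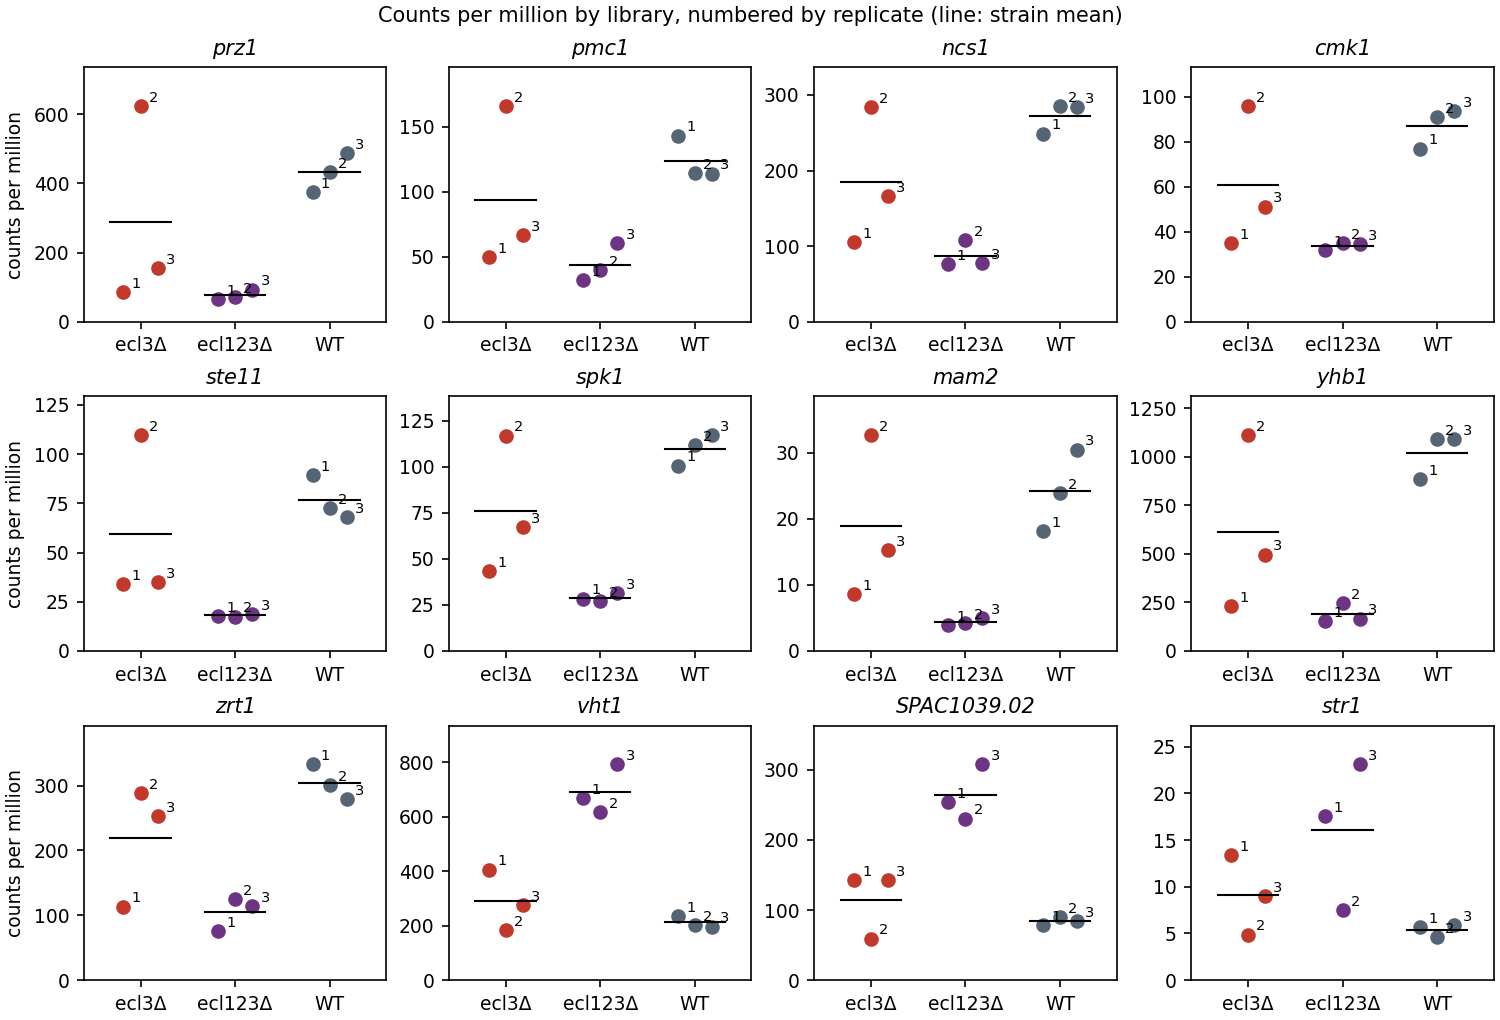
CPM of 12 members in each library, for *ecl3*Δ, *ecl123*Δ and WT. Points are libraries numbered by replicate and lines are strain means. In the first 9 genes *ecl3*Δ replicate 2 lies within or above the WT range, and replicate 1 is nearer to the *ecl123*Δ mean than to the WT mean. Replicate 3 of *zrt1* is near replicate 2, at 254 against 289 CPM. In *vht1*, *SPAC1039.02* and *str1* the order is turned round.

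Several members carry names from meiosis screens, although 0 of the 7 listed meiosis and sporulation genes at 10 CPM or more were members. *mde6* (SPAC15A10.10), annotated as a muskelin, had 29.1, 197 and 39.6 CPM in *ecl3*Δ replicates 1, 2 and 3, 34.4, 27.6 and 40.6 CPM in the *ecl123*Δ libraries and 105, 136 and 152 CPM in the WT libraries. *meu27*, *mug133*, *meu22* and *meu10* (a GPI-anchored protein) were at 28.5 CPM or less in every library, and with *mde6* all fell in *ecl123*Δ, with log2 changes of -1.91 for *mde6* and of -1.75, -1.97, -1.13 and -1.02 for the others. *mug147* had 5.13, 13.1 and 4.02 CPM in the *ecl3*Δ libraries, 9.60, 2.94 and 14.2 CPM in the *ecl123*Δ libraries and 10.03, 8.34 and 11.5 CPM in WT. There *ecl123*Δ spanned the WT range and the change was -0.13 ± 0.47 (edgeR adjusted p = 0.93).

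Genes for the cell surface formed a group of 9 lower members, of which 4 fell in *ecl123*Δ and 9 passed the adjusted p, with a median of -0.94. *imt1* (SPAC2F3.01) and *imt2* (SPCC4F11.04c), which encode mannosyltransferases, Imt1 acting on inositol phosphorylceramide, differed most. *imt2* stood at 21.1, 80.8 and 34.3 CPM in *ecl3*Δ replicates 1, 2 and 3, 11.5, 18.1 and 17.9 CPM in the *ecl123*Δ libraries and 58.7, 63.6 and 72.2 CPM in the WT libraries. *imt1* stood at 43.4, 155 and 53.02 CPM in *ecl3*Δ replicates 1, 2 and 3, 35.2, 39.6 and 55.1 CPM in the *ecl123*Δ libraries and 99.4, 113 and 127 CPM in the WT libraries. The *ecl123*Δ libraries of both lay below WT with a wide gap, and the log2 changes, both called, were -2.02 ± 0.17 for *imt2* and -1.37 ± 0.16 for *imt1* (edgeR adjusted p = 0.0014 and 0.0049).

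*omh1* (SPBC19C7.12c), a Golgi mannosyltransferase, had 151, 404 and 223 CPM in *ecl3*Δ replicates 1, 2 and 3, 124, 153 and 178 CPM in the *ecl123*Δ libraries and 340.3, 340.5 and 371 CPM in the WT libraries, and it fell in *ecl123*Δ with a log2 change of -1.19 ± 0.12. The plasma membrane proteolipid gene *pmp31* fell with a log2 change of -1.36 ± 0.12. *gas2* (SPBC29A10.08), whose product elongates cell wall 1,3-beta-glucan, took the most reads of the group, with 719, 1636 and 920.4 CPM in *ecl3*Δ replicates 1, 2 and 3, 731, 874 and 947 CPM in the *ecl123*Δ libraries and 1432, 1531 and 1531 CPM in the WT libraries. Its change in *ecl123*Δ, -0.80 ± 0.11, passed the adjusted p (0.0071, edgeR) and not the fold limit. The same held for *pun1* (a SUR7 family membrane protein, -0.67), *bgl2* (a glucanase, -0.79), *bst1* (a GPI inositol deacylase, -0.94) and *gwt1* (an acyltransferase of GPI synthesis, -0.70). Of 26 listed cell wall genes 25 were at 10 CPM or more and 3 were members, and none of the 26 was called in *ecl123*Δ.

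Along the secretory pathway 7 genes were lower members and 4 fell in *ecl123*Δ, with a median of -1.03. *krp1* (SPAC22E12.09c), the kexin protease that trims precursors in the Golgi, had 131, 305 and 179 CPM in *ecl3*Δ replicates 1, 2 and 3, 98.5, 121 and 133 CPM in the *ecl123*Δ libraries and 252, 268 and 271 CPM in the WT libraries, and fell with a log2 change of -1.15 ± 0.10. *erg1* (SPBC713.12), squalene monooxygenase of sterol synthesis, had 189, 508 and 251 CPM in *ecl3*Δ replicates 1, 2 and 3, 138, 179 and 209 CPM in the *ecl123*Δ libraries and 372, 405 and 425 CPM in the WT libraries, and fell with a log2 change of -1.18 ± 0.14. The GTPase-activating protein gene *gyp7* and the COPI vesicle protein gene *tvp15* fell with log2 changes of -1.03 and -1.17. *psd2* (phosphatidylserine decarboxylase, -0.81) and *got1* (transport protein, -0.85) passed the adjusted p alone. *svf2*, which carries ceramide from the endoplasmic reticulum to the Golgi, had a change of -0.34 and did not (edgeR adjusted p = 0.22). Only *erg1* was a member among 20 listed sterol genes.

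The vacuole and protein turnover held 9 lower members, 4 of which fell in *ecl123*Δ while 9 passed the adjusted p. *cpy1* (SPAC19G12.10c), vacuolar carboxypeptidase Y, took the most reads of any member (CPM is not corrected for gene length), with 1195, 2638 and 1552 CPM in *ecl3*Δ replicates 1, 2 and 3, 917, 948 and 1385 CPM in the *ecl123*Δ libraries and 2374, 2279 and 2278 CPM in the WT libraries. It fell with a log2 change of -1.07 ± 0.16, and 9.29% of its 51-base windows also occur elsewhere in the genome. *fub2* (a proteasome regulator), *pof9* (an F-box protein) and *SPBC15C4.06c* (a ubiquitin ligase) fell with log2 changes of -2.23, -1.50 and -1.41. *psp3* (serine protease), *dpe1* (dipeptidyl peptidase), *atg22* (vacuolar amino acid exporter), *uch1* (ubiquitin hydrolase) and *dca7* (WD repeat protein) changed by between -0.94 and -0.70, short of 2-fold. Of 22 listed autophagy genes at 10 CPM or more only *psp3* was a member. *atg22*, and *fun14*, which the study counts among autophagy factors, are members but not on that list.

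Among redox, metabolic and mitochondrial proteins 16 were lower members, of which 8 fell in *ecl123*Δ, with a median of -1.16. *yhb1* (SPAC869.02c), the nitric oxide dioxygenase, had 233, 1111 and 497 CPM in *ecl3*Δ replicates 1, 2 and 3, 154, 247 and 167 CPM in the *ecl123*Δ libraries and 885, 1091 and 1091 CPM in the WT libraries. Replicate 2 alone of the *ecl3*Δ libraries was not below WT, the *ecl123*Δ libraries were all below 250 CPM, and the gene fell with a log2 change of -2.41 ± 0.19 (edgeR adjusted p = 0.001). *cmt2* (SPBPB21E7.04c), a catechol O-methyltransferase, had 5.05, 119.9 and 5.11 CPM in *ecl3*Δ replicates 1, 2 and 3, 15.5, 3.63 and 12.7 CPM in the *ecl123*Δ libraries and 33.4, 57.1 and 65.7 CPM in the WT libraries. *ecl3*Δ replicate 2 was above the highest WT library and replicates 1 and 3 were within the range of *ecl123*Δ, in which the gene fell with a log2 change of -2.25 ± 0.49 (edgeR adjusted p = 0.042). Its paralog *cmt1* had 84.9, 318 and 112 CPM in *ecl3*Δ replicates 1, 2 and 3, 133, 97.5 and 96.3 CPM in the *ecl123*Δ libraries and 209, 257 and 283 CPM in the WT libraries, and fell with a log2 change of -1.17 ± 0.17.

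*SPAC13C5.05c* (N-acetylglucosamine-phosphate mutase), *SPCC330.03c* (cytochrome b5 reductase), *SPAC18B11.03c* (N-acetyltransferase), *fmc1* (ATP synthase assembly) and *sry1* (serine racemase) also fell, with log2 changes between -1.63 and -1.06. *gst3* (glutathione S-transferase, -0.82) and the hydrolase gene *SPAC23C11.06c* (-0.97) passed the adjusted p alone. *fbp1*, the glucose-repressed fructose-1,6-bisphosphatase of gluconeogenesis, had 4.42, 16.8 and 5.87 CPM in *ecl3*Δ replicates 1, 2 and 3, 7.18, 3.31 and 6.37 CPM in the *ecl123*Δ libraries and 11.8, 12.7 and 14.7 CPM in the WT libraries. Its change of -1.18 missed the threshold (edgeR adjusted p = 0.062), and it was the only member of 16 listed hexose uptake and glucose-repressed genes at 10 CPM or more. The mitochondrial outer membrane protein gene *fun14* (-0.49) and the reductase gene *SPAC19G12.09* (-0.75) did not pass. *urg1* and *urg2*, the uracil-regulated genes, were less displaced in *ecl123*Δ, at -0.69 and -0.50 (edgeR adjusted p = 0.096 and 0.25). *urg2* had 79.98, 177 and 144 CPM in *ecl3*Δ replicates 1, 2 and 3, 108, 177 and 115 CPM in the *ecl123*Δ libraries and 152, 202 and 219.9 CPM in the WT libraries, so that *ecl123*Δ replicate 2 lay within WT.

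Among the members, a single gene had a pattern of its own. *SPAC750.01*, of the aldo/keto reductase family, had 1.55, 82.1 and 0.724 CPM in *ecl3*Δ replicates 1, 2 and 3, 2.32, 0.686 and 1.25 CPM in the *ecl123*Δ libraries and 21.5, 0.602 and 0.832 CPM in the WT libraries. It was high in *ecl3*Δ replicate 2 and in WT replicate 1 and at 2.32 CPM or less in the other 7 libraries, and its log2 ratio between *ecl3*Δ replicates 1 and 2, -5.03, was the furthest from 0 in the set. Of its 51-base windows 32.5% occur elsewhere in the genome, so reads from them may not be placed uniquely. The change in *ecl123*Δ was -2.38 ± 1.29 (edgeR adjusted p = 0.39), and strains overlapped.

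Regulatory genes made up a further group of 7 lower members: *mbx1* (MADS-box transcription factor), *mst2* (histone acetyltransferase), *hri1* (kinase of the translation factor eIF2 alpha), *ppk15* (kinase), *cgs1* (regulatory subunit of cAMP-dependent kinase), *dcr2* and *SPBC1271.03c* (phosphatases). All 7 passed the adjusted p in *ecl123*Δ and 1 passed the fold limit. *mbx1* (SPBC19G7.06) had 33.6, 102 and 35.2 CPM in *ecl3*Δ replicates 1, 2 and 3, 26.9, 26.5 and 46.2 CPM in the *ecl123*Δ libraries and 60.3, 60.8 and 66.1 CPM in the WT libraries. *hri1* (SPAC20G4.03c) had 20.5, 62.2 and 33.4 CPM in *ecl3*Δ replicates 1, 2 and 3, 21.7, 23.8 and 26.3 CPM in the *ecl123*Δ libraries and 39.2, 52.2 and 51.9 CPM in the WT libraries. For both, *ecl3*Δ replicate 2 was above every WT library. *cgs1* (SPAC8C9.03) had 7.43, 16.2 and 7.16 CPM in *ecl3*Δ replicates 1, 2 and 3, 5.42, 5.20 and 7.21 CPM in the *ecl123*Δ libraries and 16.98, 12.4 and 12.6 CPM in the WT libraries, and fell with a log2 change of -1.21 ± 0.20 (edgeR adjusted p = 0.016). The other 6 changed by between -0.98 and -0.68.

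Among transporter genes 4 were lower members, of which 3 fell in *ecl123*Δ. *zrt1* (SPBC16D10.06), the plasma membrane zinc transporter, had 114, 289 and 254 CPM in *ecl3*Δ replicates 1, 2 and 3, 75.6, 125 and 114 CPM in the *ecl123*Δ libraries and 333, 301 and 279.8 CPM in the WT libraries. Here *ecl3*Δ replicate 3 lay near replicate 2, below WT and at a fitted log2 change of -0.25 from WT, while it fell in *ecl123*Δ with a log2 change of -1.52 ± 0.17 (edgeR adjusted p = 0.0038). It was the only member of 7 listed zinc genes. *SPCPB1C11.02*, an amino acid permease, had 2.61, 31.6 and 5.51 CPM in *ecl3*Δ replicates 1, 2 and 3, 3.26, 2.78 and 4.82 CPM in the *ecl123*Δ libraries and 15.5, 17.5 and 19.6 CPM in the WT libraries, and fell with a log2 change of -2.25 ± 0.22. *mfs1* fell with a log2 change of -1.32 ± 0.15, and *SPAC14C4.07* changed by -0.98, short of the fold limit.

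Proteins that were uncharacterized or assigned no role here included 2 of the members with the widest range. *SPCC737.04* had 7.31, 183 and 17.8 CPM in *ecl3*Δ replicates 1, 2 and 3, 13.6, 5.77 and 15.9 CPM in the *ecl123*Δ libraries and 80.7, 107 and 126 CPM in the WT libraries. *SPAPB24D3.07c* had 147, 1379 and 312 CPM in *ecl3*Δ replicates 1, 2 and 3, 178, 245 and 189.7 CPM in the *ecl123*Δ libraries and 790.5, 1079 and 1092 CPM in the WT libraries. In both, *ecl3*Δ replicate 2 exceeded every WT library and replicates 1 and 3 lay far below all of them. They fell in *ecl123*Δ, with log2 changes of -3.12 ± 0.35 and -2.25 ± 0.17 (edgeR adjusted p = 0.0038 and 9.2e-04). In *ecl3*Δ replicate 3 their fitted changes were -2.54 and -1.65. *SPBC19C7.04c* (log2 ratio between *ecl3*Δ replicates 1 and 2 of -2.50) and *SPBPB21E7.08* (-1.89) fell in *ecl123*Δ with log2 changes of -1.84 and -1.81. In all, 16 lower members were annotated as uncharacterized or had no product. *SPCC4F11.05*, *SPCC584.16c*, *SPAC1952.04c* and *SPAC922.09* also fell, with log2 changes between -1.59 and -1.34. *SPAC1687.08*, *SPCC1322.09* and *SPAC630.04c* passed the adjusted p alone, as did *lsb1* (SH3 domain protein, -0.91), *csc1* (FHA domain protein, -0.77) and *wwm2* (-0.96). *SPAPB1A11.05*, *SPAPJ695.02*, *SPBP35G2.17*, *SPAC637.03* and *SPCC191.01* did not, with changes between -0.79 and -0.31.

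**Figure D4:**
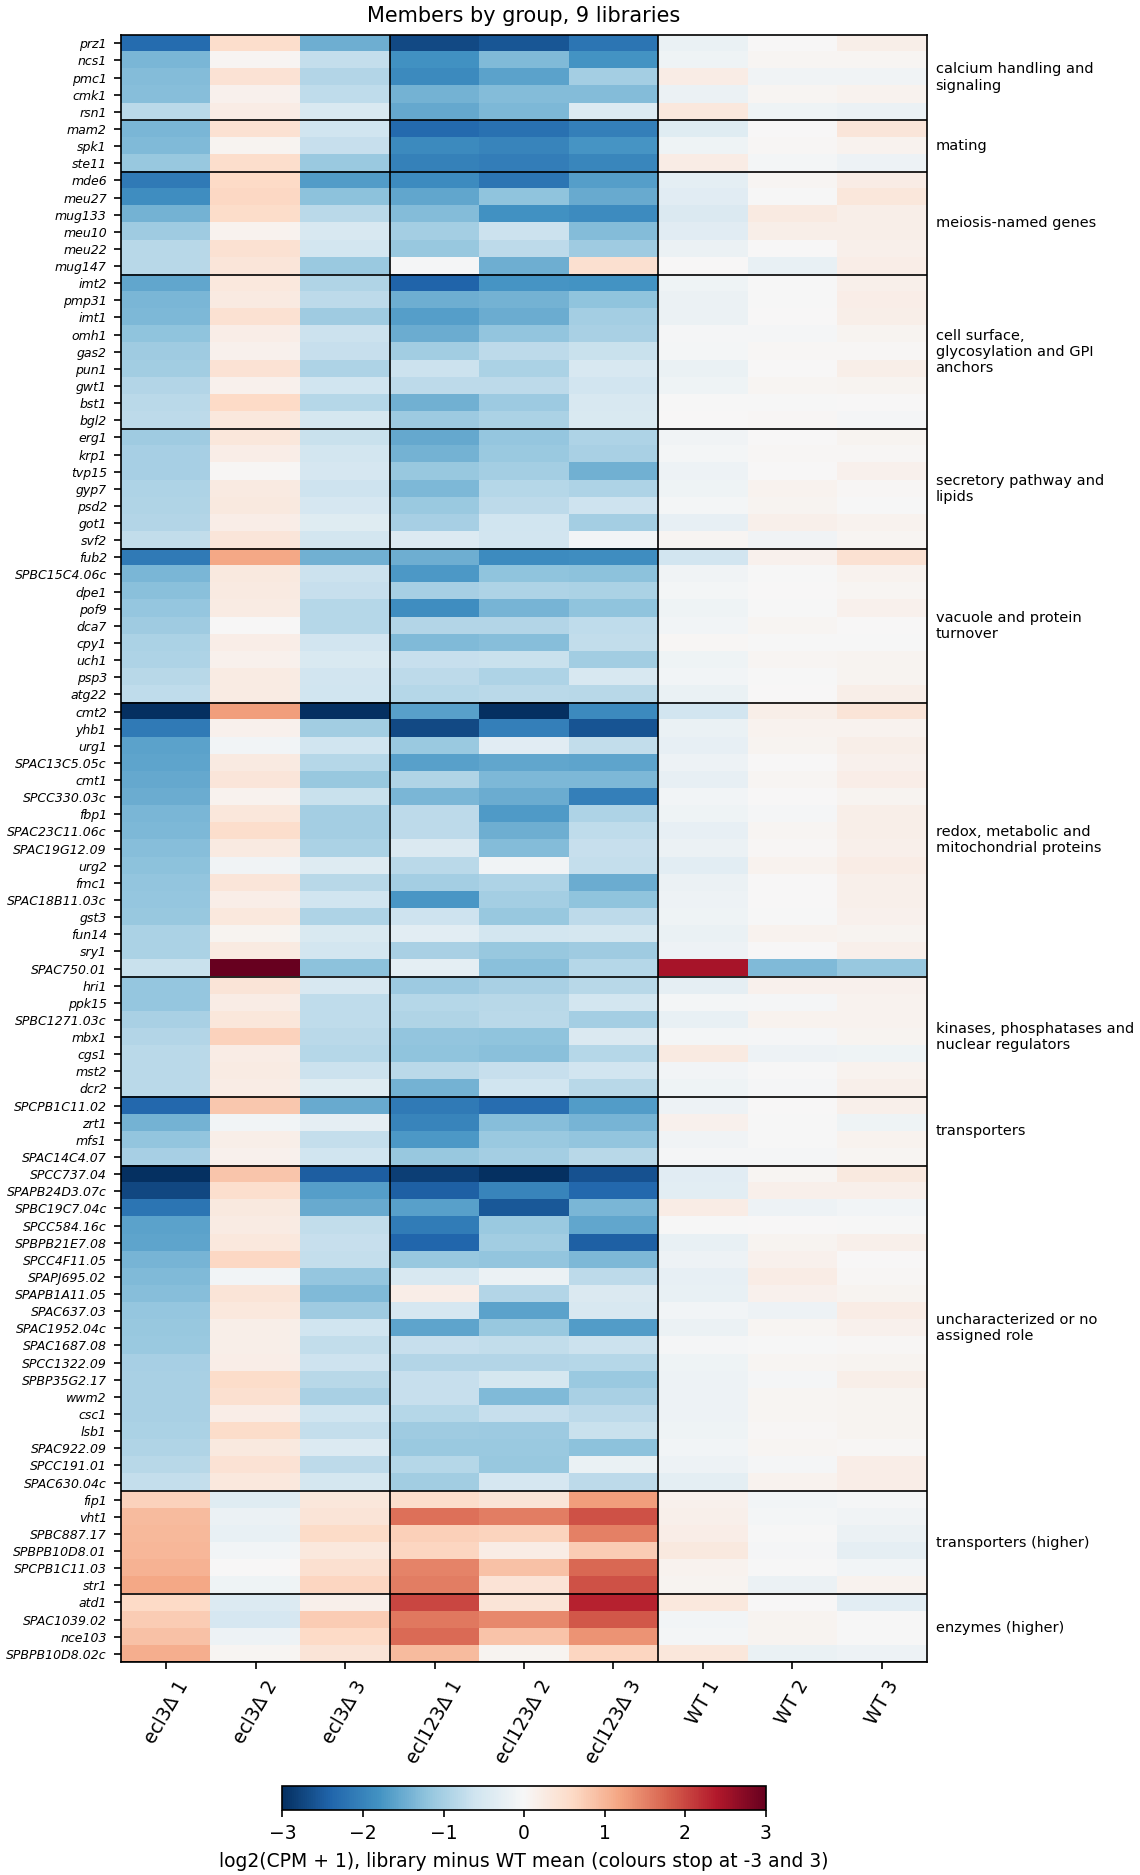
Level of each of the 95 members (rows) in the 9 libraries (columns), as log2(CPM + 1) minus the WT mean, grouped by function. Blue is lower and red higher than WT. The *ecl3*Δ replicate 2 column is red or near white over most of the 85 lower members (median 0.29), deepest for *SPAC750.01* (4.36) and just below WT for *urg1* (-0.08), *urg2* (-0.10), *zrt1* (-0.07) and *SPAPJ695.02* (-0.08). Replicates 1 and 3 are blue over them and so is *ecl123*Δ, apart from *mug147* in replicate 3 (0.49) and *SPAPB1A11.05* in replicate 1 (0.21), and *SPAC750.01* is red also in WT replicate 1.

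The 10 higher members were 6 transporter genes and 4 enzyme genes. *vht1* (SPAC1B3.16c), the biotin transporter, stood at 406, 185 and 276 CPM in *ecl3*Δ replicates 1, 2 and 3, 668, 619 and 793 CPM in the *ecl123*Δ libraries and 236, 203 and 197 CPM in the WT libraries. *SPAC1039.02*, annotated in RefSeq as a phosphoprotein phosphatase, stood at 143, 59.3 and 142 CPM in *ecl3*Δ replicates 1, 2 and 3, 253, 230.5 and 308 CPM in the *ecl123*Δ libraries and 79.1, 89.4 and 83.7 CPM in the WT libraries. The study describes its product as a predicted nucleotidase that acts outside the cell. *nce103* (SPBP8B7.05c), a carbonic anhydrase, stood at 295, 143 and 242 CPM in *ecl3*Δ replicates 1, 2 and 3, 522, 289.6 and 408 CPM in the *ecl123*Δ libraries and 153, 171 and 159 CPM in the WT libraries. In each, *ecl3*Δ replicate 2 was at or below the WT range, replicates 1 and 3 were above it, and *ecl123*Δ did not overlap WT. They rose in *ecl123*Δ, with changes of 1.73 ± 0.12, 1.67 ± 0.12 and 1.37 ± 0.21 (log2, SE, edgeR adjusted p = 6.6e-04, 6.6e-04 and 0.012).

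*SPCPB1C11.03*, a cysteine transporter, had 39.5, 18.7 and 26.4 CPM in *ecl3*Δ replicates 1, 2 and 3, 54.2, 35 and 63.3 CPM in the *ecl123*Δ libraries and 19.9, 18.4 and 17.4 CPM in the WT libraries. *SPBC887.17*, a transmembrane transporter, had 137, 59.2 and 104 CPM in *ecl3*Δ replicates 1, 2 and 3, 114, 109.6 and 199 CPM in the *ecl123*Δ libraries and 78.6, 68.4 and 60.3 CPM in the WT libraries. Both rose in *ecl123*Δ, with log2 changes of 1.48 ± 0.21 and 1.04 ± 0.23 (edgeR adjusted p = 0.0086 and 0.042). The iron genes *str1* (siderophore transporter) and *fip1* (iron permease) were at 23.1 CPM or less in every library. *str1* had 13.4, 4.88 and 9.04 CPM in *ecl3*Δ replicates 1, 2 and 3, 17.6, 7.54 and 23.1 CPM in the *ecl123*Δ libraries and 5.72, 4.64 and 5.91 CPM in the WT libraries. Its change in *ecl123*Δ was 1.59 ± 0.38 (edgeR adjusted p = 0.056) and that of *fip1* was 0.88 ± 0.25 (0.11). They were 2 of 10 listed iron genes at 10 CPM or more, and 0 of 15 tested were called.

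*atd1* (SPAC9E9.09c), an aldehyde dehydrogenase, had 193, 94.7 and 141 CPM in *ecl3*Δ replicates 1, 2 and 3, 512, 165 and 634 CPM in the *ecl123*Δ libraries and 158, 127 and 101 CPM in the WT libraries. The *ecl123*Δ libraries disagreed among themselves, and the change of 1.79 ± 0.44 missed the threshold (edgeR adjusted p = 0.067). *SPBPB10D8.01* (cysteine transporter) and *SPBPB10D8.02c* (arylsulfatase) had changes of 0.59 and 0.65 with no call.

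Some of the lists held no member. None of the 13 listed phosphate acquisition genes was one, with log2 ratios between *ecl3*Δ replicates 1 and 2 of -0.33 to 0.41. *SPAC1039.02*, counted by the study among phosphate-mobilizing genes, is a member but not on that list. Nor was any of 141 genes for cytosolic ribosomal proteins (-0.20 to 0.38), 24 respiration genes, 15 chaperone genes, 15 sulfur assimilation genes, 10 histone genes or 15 cell cycle genes controlled by the transcription complex MBF. Of 30 stress response genes at 10 CPM or more *gst3* alone was a member, of 21 nitrogen and amino acid uptake genes *meu22* alone, and of 13 genes of vitamin uptake and synthesis *vht1* alone. The amino acid permease gene *SPCPB1C11.02* and the cysteine transporter genes *SPCPB1C11.03* and *SPBPB10D8.01* are members but not on the uptake list.

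By position, 50 members lay on chromosome I, 29 on II and 15 on III, which is 2.37%, 1.69% and 1.81% of the coding genes at 10 CPM or more there, and 1 ID was not matched. There were 6 pairs of neighbours, holding 12 members. Whether that is more than other coding genes would give was not tested. *SPCPB1C11.02* and *SPCPB1C11.03*, read in the same direction, moved oppositely: the permease gene was lower and the cysteine transporter gene higher in *ecl3*Δ replicate 1. *SPBPB10D8.01* and *SPBPB10D8.02c* were both higher. *imt2* with *SPCC4F11.05*, *ncs1* with *SPAC18B11.03c*, *pun1* with *mde6* and *SPAC19G12.09* with *cpy1* were both lower in each pair.

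At the edge of the rule, *atg22* and *gwt1* were the nearest inside on the lower side, at -1.01 and -1.01, and *SPAC1039.07c* (alanine-glyoxylate transaminase) and *aah1* (a GPI-anchored glycosyl hydrolase) the nearest outside, at -0.995 and -0.98. On the higher side *atd1* and *SPBPB10D8.02c* were just inside, at 1.02 and 1.04, and *ptr2* (peptide transporter) and *amt1* (ammonium transporter) just outside, at 0.99 and 0.98. *amt1* lies next to *SPCPB1C11.02*.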

How the data were processed

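Poly(A)+ RNA of 3 *ecl3*Δ, 3 *ecl123*Δ and 3 WT cultures was sequenced as paired-end reads with a stranded kit. The authors mapped reads with HISAT2 2.1.0, counted them per gene with HTSeq 0.10.0 on the ASM294v2 annotation and deposited unnormalized counts. The counts were used as deposited, from 23254907 to 34871124 per library, which limits precision for genes at few CPM. IDs were matched to RefSeq for names and products (6836 of 6988), whose build differs, so no coordinates or sequences are given.

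Members and gene lists were chosen with earlier results of these data known, and the function groups after member values were seen. Genes named were the 12 members per direction with the largest ratio at 50 CPM or more, up to 10 called members per direction by p, up to 4 members per list and the 2 genes nearest the limit on each side. The others named were chosen after their values were seen.

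*ecl123*Δ was compared with WT in edgeR 4.0.16 (TMM scaling, filterByExpr, quasi-likelihood test, R 4.3.3), over 6 libraries without *ecl3*Δ, and *ecl3*Δ replicate 3 with WT over 7. Calls needed an adjusted p of 0.05, a 2-fold change and a mean normalized count of 100. SE is the log2 change divided by the square root of F. The p-values measure the spread between these cultures. Alternatives were DESeq2 1.42.0, other scaling, filters, limits and fits, and each library left out. The test was checked on simulated counts. No batch or date was given in the sources used here.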

Additional observations from a re-analysis of the deposited data

How the results depend on the processing

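Of 85 alternatives to the counts and spreads reported, 74 stayed within the limits set here, and 11 did not. The total is not a measure of stability. For *ecl3*Δ replicate 3, 16 of 18 (lower) and 18 of 18 (higher) stayed, where staying meant no call. All alternatives for the spreads stayed, under a wide limit. For the calls in *ecl123*Δ, 14 of 18 stayed for the lower and 14 of 18 for the higher members. A count had to stay within 1.5 times its value. A median spread had to move by less than the SD of the spread across coding genes in *ecl123*Δ, which is not an error of the median. The 44 lower members called in *ecl123*Δ became 71 at a 1.5-fold limit, 71 with no fold limit, 25 under a rule at a log2 ratio of 1.5 (with fewer members, 36 and none higher), and 8 with all 9 libraries in the fit. That last fit also takes the spread from the *ecl3*Δ libraries, including replicates 1 and 2, between which the rule required members to differ. It called 46 genes in all against 118. Leaving out 1 library gave 30 to 51. The 5 higher members called became 0 under the rule at 1.5, which has no higher member, and 2 to 7 with 1 library left out (3, 2 and 2 without WT replicate 1, 2 and 3). The 95 members became 36 under the rule at 1.5. For *ecl3*Δ replicate 3 against WT, the 0 lower members called became 13 with DESeq2 and ranged from 0 to 6 with 1 library left out (6 without *ecl123*Δ replicate 3). The cause was not tested. With the replicate number as a block, 41 lower and 4 higher members were called in *ecl123*Δ. Across genes, the deviations of *ecl123*Δ and WT samples of the same number from their strain means had r = -0.20, 0.18 and -0.29. With 3 libraries per strain, *ecl123*Δ replicate 3 apart and *ecl3*Δ left out, this cannot decide whether the numbers pair the samples.

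The rule rests on 1 pair of cultures of 1 isolate, and *ecl3*Δ replicate 3 is a single library, so neither comparison has replicates of its own. Depth limits the members near 10 CPM most.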

Other observations

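Under the same limits, 33 of 352 noncoding RNA IDs at 10 CPM or more also differed between *ecl3*Δ replicates 1 and 2, 31 lower and 2 higher in replicate 1. Of the 31, 30 could be tested in *ecl123*Δ against WT and all 30 had a negative log2 change, with a median of -1.30 and 20 called lower by edgeR. Both higher ones were called higher, with a median of 1.54. The percentages called over all genes were 1.46% lower and 0.435% higher. On the 3 excluded cosmids, 2 of 12 genes passed the limits, both lower in replicate 1.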
